A study of Mus musculus with 4 samples.

Results

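Interleukin-1 (IL-1) family ligands and receptors were followed gene by gene across the cells of bone marrow (BM) and spleen from mice with and without tumors. The set held 10 of the 32285 genes in the count matrices, chosen as family members by name and with earlier results of these data known. 3 of them encode cytokines (Il1a, Il1b, and Il18), and Il1rn encodes the IL-1 receptor antagonist. The other 6 encode receptor chains (Il1r1, Il1r2, Il1rap, Il1rl1, Il18r1, and Il18rap).

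IL-1α and IL-1β both bind the receptor chain encoded by Il1r1, which signals together with the accessory chain encoded by Il1rap through the adaptor MyD88. Il1rn encodes a ligand that occupies the receptor without signaling, and Il1r2 encodes a decoy chain. Il1rl1 encodes ST2, the receptor chain for IL-33, and pairs with the same accessory chain, whereas IL-18 acts through the chains of Il18r1 and Il18rap. In hematopoiesis, IL-1 drives stem and progenitor cells toward the myeloid lineage, and ST2 is a known feature of mast cells and basophils.

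The mice were C57BL/6J, 8 to 16 weeks old, with no other allele given. Tumor-bearing mice carried PyMT-B6, a transplanted mammary tumor cell line that descends from mice with the polyoma middle T oncogene under the MMTV promoter, and control mice carried no tumor. Single-cell RNA-sequencing (scRNA-seq) was performed with 1 library per group, named CBM and CS for the BM and spleen of control mice and TBM and TS for those of tumor-bearing mice. Digested tissue was depleted of lineage-positive cells, sorted into c-Kit+ hematopoietic and CD45- fractions, and recombined at equal ratios, so class shares reflect the sort. The number of mice behind each library was not given in the sources used here. With 1 library per group no test between groups was possible, and mouse, library, and condition cannot be told apart.

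Droplet barcodes with at least 1000 genes and at most 10% mitochondrial unique molecular identifiers (UMIs) were kept. This left between 3236 barcodes in CS and 5188 in TS, 16261 in all, with a median of 13738 to 26808 UMIs each. Kept barcodes of pairs of libraries shared 2 to 9 column positions in their matrices, and the barcode sequences were not compared. The kept barcodes formed 39 clusters. Fixed marker genes gave a name to 32 clusters, which fell into 14 classes, and the named barcodes numbered 13472. Unnamed clusters held 34.9% of the barcodes in CS and 10.7% to 15% in the other libraries. The level of a gene is its share of all UMIs of a class, in counts per 1000000 UMIs (CPM), with an exact Poisson 95% interval. Intervals here cover counting error only. Free RNA, measured in droplets with at most 100 UMIs, is given beside levels as the background that any droplet can carry. Its CPM is a share of free UMIs, which are only part of a cell barcode's UMIs, and that part was not measured.

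Each member had its own distribution over the named classes with at least 20 barcodes. Il18 and Il1r1 were highest in barcodes named from hematopoietic stem and progenitor cell markers (HSPC-like) in both BM libraries. Il1b was highest in Neutrophil-like barcodes of TBM and in Conventional dendritic cell-like barcodes of the spleen. Il1rl1, Il1rap, Il18r1, and Il18rap were highest in Basophil-like barcodes, apart from Il1rl1 in CBM and CS, where the few Mast-like barcodes were higher.

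**Figure D1:**
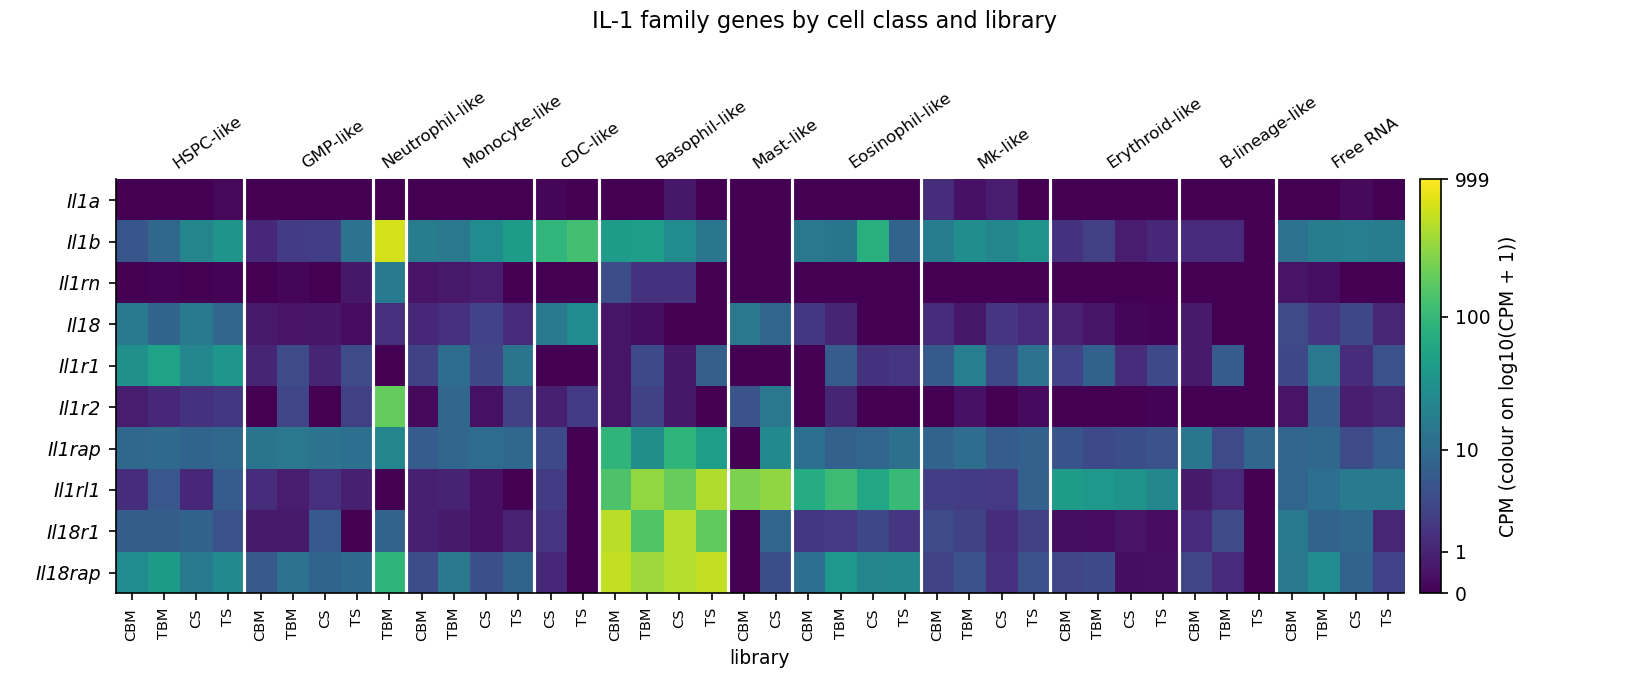
Level of each of the 10 genes (rows, colour on a log10(CPM + 1) scale) in named classes with at least 20 barcodes in a library and in free RNA, by library (columns). GMP-like, cDC-like, and Mk-like stand for Granulocyte-monocyte progenitor-like, Conventional dendritic cell-like, and Megakaryocyte-like. The Basophil-like columns are bright for Il1rl1, Il18r1, and Il18rap in all 4 libraries, whereas the bright Il1b column belongs to the Neutrophil-like barcodes of TBM at 636 CPM.

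5 of the 6 receptor genes lie in 1 region of the plus strand of chromosome 1, in the order Il1r2, Il1r1, Il1rl1, Il18r1, and Il18rap, within 477627 bases (mm10, GENCODE vM21), and other genes, Il1rl2 among them, lie between some of them. Il1rl1 (ENSMUSG00000026069, chr1:40429570-40465415) ends 136 bases before Il18r1 (ENSMUSG00000026070, chr1:40465552-40500854). Il18rap (ENSMUSG00000026068, chr1:40515362-40551705) begins 14507 bases after the end of Il18r1. Il1r1 (ENSMUSG00000026072, chr1:40225080-40317257) is separated from Il1rl1 by 112312 bases. Outside this cluster, Il1rap (ENSMUSG00000022514) lies on chromosome 16, Il18 on chromosome 9, and Il1a, Il1b, and Il1rn on chromosome 2.

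Sequence from this cluster is shown because its genes Il1rl1, Il18r1, and Il18rap were all high in Basophil-like barcodes, and Il1rl1 alone of them was also high in Erythroid-like barcodes. The first and second sequences are the 250 bases before the upstream-most RefSeq start of Il1rl1 and before the start of Il18rap, and the third is the whole stretch between Il1rl1 and Il18r1 (RefSeq windows of GRCm38.p6, the assembly behind mm10, plus strand, no annotated exon inside). Capitals mark words that GATA factors bind, searched on both strands, namely AGATAA, the like word AGATAG, and the forms that begin with T, of which one is TGATAA while the last is TGATAG, and in the Il18rap window also GAGGAAG, a word that PU.1 binds, which was searched on both strands. The words were chosen after the levels had been seen, and none of the matches overlap.
Il1rl1, chr1:40429320-40429569: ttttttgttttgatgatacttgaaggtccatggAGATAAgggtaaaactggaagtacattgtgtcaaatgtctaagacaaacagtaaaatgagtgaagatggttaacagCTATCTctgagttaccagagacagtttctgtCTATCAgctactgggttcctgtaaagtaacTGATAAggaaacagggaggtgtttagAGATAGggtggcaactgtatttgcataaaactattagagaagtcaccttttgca
Il18rap, chr1:40515112-40515361: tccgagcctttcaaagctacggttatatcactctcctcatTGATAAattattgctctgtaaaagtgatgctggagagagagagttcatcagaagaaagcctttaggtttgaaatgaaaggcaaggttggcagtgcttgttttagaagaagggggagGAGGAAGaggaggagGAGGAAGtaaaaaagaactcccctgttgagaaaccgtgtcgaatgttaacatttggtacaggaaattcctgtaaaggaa
Between Il1rl1 and Il18r1, chr1:40465416-40465551: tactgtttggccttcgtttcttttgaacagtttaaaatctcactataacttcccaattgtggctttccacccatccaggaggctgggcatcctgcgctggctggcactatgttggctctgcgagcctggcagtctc
The Il1rl1 window held 5 GATA words, between 54 and 217 bases before the start. At least 5 were found in 14 of 32841 mouse promoter windows of this length (0.0426%), and at least 1 in 26.5%. The search covered the windows of all members and also a pattern that NF-kappaB binds, and this window had the most GATA words among them. Single matches lay in windows of Il1a (GAGGAAG), Il1b and Il1r2 (GATA), and Il1r1 (NF-kappaB). The Il18rap window held 1 GATA word and 2 copies of GAGGAAG, and 0.95% of windows held 2 or more such copies. Neither word was found in the 136 bases between Il1rl1 and Il18r1. Other RefSeq starts of these genes gave other counts: 1 further Il1rl1 window held 1 GATA word, and 1 further Il18r1 window held 1 copy of GAGGAAG. A match describes the letters and not a bound site.

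Il1a, which encodes IL-1α, was almost undetected. Its UMIs numbered 10 in CBM and 4 in TBM, and 7 in CS and 2 in TS. Megakaryocyte-like barcodes held 9 of the 10 UMIs in CBM and 4 of the 4 in TBM, at 1.48 CPM (0.677–2.81) and 0.383 CPM (0.104–0.98). In the spleen they held 4 of the 7 in CS and 0 of the 2 in TS. HSPC-like barcodes had 0 Il1a UMIs in CBM, TBM, and CS and 2 in TS (0.157 CPM, 0.019–0.568). In CBM, 3 UMIs would have been a level of 0.233 CPM.

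Il1b, the gene of the secreted cytokine IL-1β, had a different leading class in each library. Monocyte-like barcodes held 37.2% of the Il1b UMIs of CBM. Neutrophil-like barcodes held 28.8% in TBM while making up 1.27% of its barcodes, and Conventional dendritic cell-like barcodes held 54.6% in CS. In TS the HSPC-like barcodes held 34.7%, or 444 of 1279 UMIs. Of these, 304 lay in 1 of the 3 HSPC-like clusters, led by Iglc1, and the other HSPC-like barcodes held 10.9%, beside 11.6% in Megakaryocyte-like and 10.2% in Neutrophil-like barcodes. The Neutrophil-like share came from 5 barcodes, with 93 of the 131 UMIs in 1 of them. The leading class of TS therefore rested on the name of the Iglc1-led cluster, which was Monocyte-like for all 278 of its TS barcodes at a coarser clustering (resolution 0.6). The 55 Neutrophil-like barcodes of TBM reached 636 CPM (575–701), and the 317 Conventional dendritic cell-like barcodes of CS reached 92.8 CPM (86.4–99.6), against free RNA of 17.2 and 18.2 CPM. In CBM, 28 barcodes of an unnamed cluster led by Apoc2 and Fcgr4 held 94 Il1b UMIs, a level of 234 CPM. Mast-like barcodes had 0 UMIs of Il1b from 20 barcodes in CBM and 44 in CS, where 3 UMIs would have been 14.6 and 6.34 CPM.

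In HSPC-like barcodes Il1b was at 5.36 CPM in CBM and 8.97 in TBM, and 21.9 in CS and 34.9 in TS. Both spleen libraries were above both BM libraries, and the tumor-bearing library was above the control library of its tissue, with no overlap among the 4 intervals, although TS and CS were not separated inside any single HSPC-like cluster. The log2 ratio was 2.03 (1.54–2.52) for CS over CBM, against 1.96 (1.69–2.24) for TS over TBM. Between conditions it was 0.67 (0.32–1.04) for TS over CS and 0.74 (0.32–1.18) for TBM over CBM. Free RNA was at 12.5, 17.2, 18.2, and 17.7 CPM in CBM, TBM, CS, and TS, so both BM levels were below it, the CS interval (17.2–27.4) included it, and the TS interval (31.7–38.3) lay above it. With finer clusters (Leiden resolution 2.0 in place of 1.2) the BM ratio of conditions was -0.05, and with barcodes of at least 350 genes it was 0.16 in the spleen and 0.11 in BM.

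Few HSPC-like barcodes carried this signal. The intervals of levels and ratios take UMIs as independent and do not cover this unevenness among barcodes. The 1% of HSPC-like barcodes with the most Il1b UMIs held 62.3% of them in CBM and 44.8% in TBM, and 46.1% in CS and 28.4% in TS. After each barcode was thinned to 2000 UMIs, 0.753% (0.277–1.63) of HSPC-like barcodes in CBM had an Il1b UMI. The share was 1.27% (0.66–2.21) in TBM, 3.95% (1.46–8.39) in CS, and 4.51% (3.12–6.27) in TS. Counted this way, the CS interval overlapped each of the others, and the TS interval lay above both BM intervals. Unthinned, the shares were 3.51%, 6.47%, 7.89%, and 15%. Erythroid-like barcodes, which should lack the gene, had thinned shares of 0% to 0.306%, with a median depth of 14303 to 58560 UMIs against 13705 to 19486 in HSPC-like barcodes.

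Il1b differed between the HSPC-like clusters. The cluster led by Hlf, a transcription factor of stem cells, held 659 of the 797 HSPC-like barcodes of CBM and 651 of the 943 of TBM. In the spleen it held 80 of 152 in CS and 68 of 732 in TS. Its Il1b levels were 3.77 CPM (2.61–5.27) in CBM and 4.15 (2.88–5.80) in TBM. In the spleen they were 2.87 (0.783–7.35) in CS from 4 UMIs and 1.54 (0.0389–8.56) in TS from 1 UMI, so a tissue difference in this cluster could not be read at this depth. The cluster led by Iglc1 held 131 barcodes in CBM and 214 in TBM, and 30 in CS and 278 in TS. It was at 9.09 and 14.7 CPM in BM and at 41.8 and 42 CPM in the spleen, with a log2 ratio of 0.01 (-0.44–0.48) for TS over CS and 0.70 (0.12–1.31) for TBM over CBM. This cluster sat at the edge of the class. At resolution 0.6 Monocyte-like clusters took 121, 209, 27, and 278 of its barcodes in CBM, TBM, CS, and TS, with all of its Il1b UMIs. At resolution 2.0 most stayed HSPC-like, but 97 of the 278 in TS, with 181 of its 304 UMIs, became Granulocyte-monocyte progenitor-like, as did 58 of 214 in TBM with 70 of 96 UMIs. The cluster led by Dusp2, an immediate-early phosphatase gene, held 386 of the TS barcodes and 7 of the CBM barcodes, and had 10.3 CPM in TBM, against 26.1 in CS and 28.7 in TS. Its log2 ratio of TS over CS was 0.14 (-0.48–0.81), so neither of the clusters with spleen signal separated TS from CS.

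A list of 20 dissociation and immediate-early genes moved with the tissue as well. In HSPC-like barcodes their median log2 ratio was 0.80 for CS over CBM, against 0.43 for TS over TBM, beside 0.00 and -0.05 over all genes. For TS over CS it was -0.24 and for TBM over CBM 0.06. Markers of neutrophils in HSPC-like barcodes summed to 25.1 CPM in CBM and 138 in TBM, and 4.32 in CS and 34.7 in TS, with a UMI for 10, 12, 4, and 11 of the 13 markers. The part of either in the Il1b levels was not tested.

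**Figure D2:**
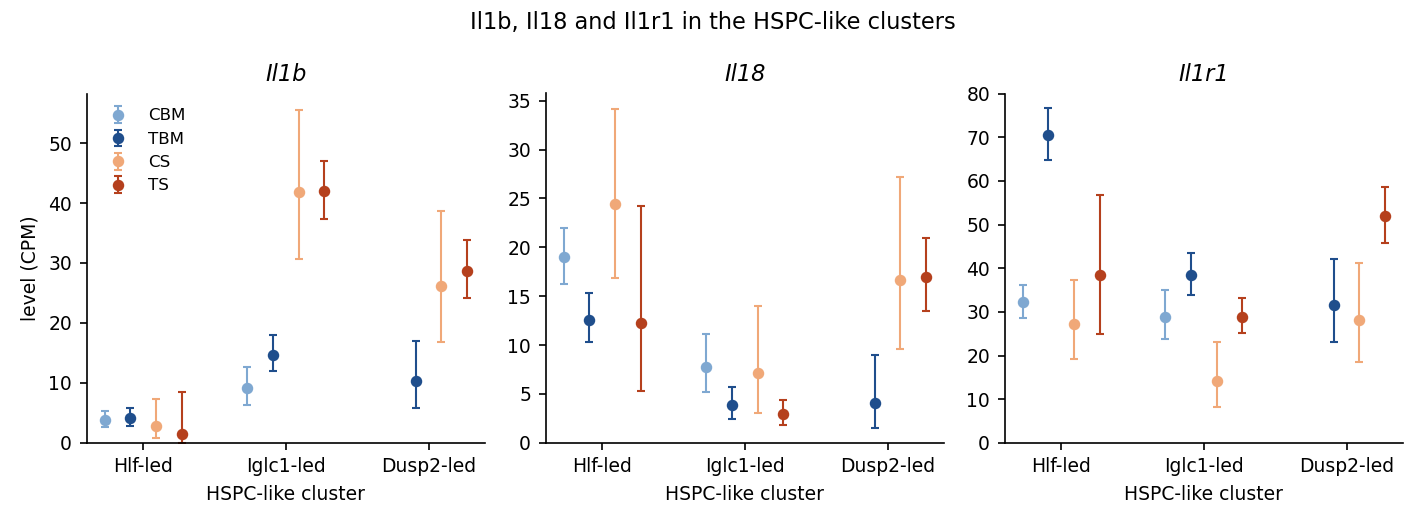
Levels (CPM) of Il1b, Il18, and Il1r1 in the 3 HSPC-like clusters, by library, with exact Poisson 95% intervals and only where a library had at least 20 barcodes. Il1b was at 26.1 to 42 CPM in the spleen libraries of the Iglc1-led and Dusp2-led clusters and at 4.15 CPM or less in the Hlf-led cluster, where Il1r1 of TBM stood at 70.6 CPM.

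In Basophil-like barcodes Il1b was at 43.2, 45.7, 27.2, and 14.2 CPM in CBM, TBM, CS, and TS, the last from 4 UMIs. Megakaryocyte-like barcodes had 17.1, 28.2, 22.9, and 33.4 CPM. In that class the log2 ratio was 0.55 (0.20–0.90) for TS over CS and 0.72 (0.40–1.06) for TBM over CBM. The larger Pf4-led cluster of the class was at 28.6 CPM (22.8–35.5) in CS and 29.5 (23.1–37) in TS. A smaller one, also led by Pf4, was at 17.7 (12.9–23.6) in CS and 40.9 (32.2–51.4) in TS. TBM was above CBM in both, at 33.9 against 19.4 CPM and 21.6 against 14.2 CPM. Monocyte-like barcodes were at 17.2, 14.8, 27.7, and 44 CPM, with the spleen above BM in both conditions. The cluster of this class led by F13a1 had that order of tissues, at 7.01, 8.45, 31.4, and 45.7 CPM. The Lyz2-led cluster went the other way between control tissues, at 31 CPM (27–35.5) in CBM and 7.26 (1.5–21.2) in CS, the latter from 3 UMIs in 22 barcodes. The list of dissociation and immediate-early genes moved with the tissue in Monocyte-like barcodes too, with a median log2 ratio of 1.29 for CS over CBM, against 0.42 for TS over TBM, and 0.77 and 0.57 in Megakaryocyte-like barcodes. In Megakaryocyte-like barcodes it was also 0.51 for TBM over CBM and 0.11 for TS over CS. For TS over TBM it was 0.70 in Granulocyte-monocyte progenitor-like barcodes, and its part in Il1b was not tested.

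Il1rn, the receptor antagonist, had 6 to 31 UMIs per library. Among named classes with at least 20 barcodes its highest level was in the Neutrophil-like barcodes of TBM, at 15.7 CPM (7.55–28.9) from 10 UMIs. Basophil-like barcodes followed, with 4.18 CPM (1.91–7.94) in CBM and 1.69 CPM (0.621–3.68) in TBM. In HSPC-like barcodes it had 0 to 1 UMI per library.

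Il18, whose product needs cleavage by caspase-1 to act, was concentrated in HSPC-like barcodes in BM. HSPC-like barcodes held 75.8% of its UMIs in CBM, 73.2% of those in TBM, and 68.5% of those in TS. In CS they held 21.6%, where Conventional dendritic cell-like barcodes held 52.2% at 16.8 CPM (14.1–19.8). Basophil-like barcodes had at most 1 Il18 UMI in any library.

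The HSPC-like level of Il18 was 15.6 CPM in CBM and 8.29 in TBM, and 16.7 in CS and 8.72 in TS, against free RNA of 3.87, 1.98, 3.36, and 1.11 CPM. Both tumor-bearing libraries were below both control libraries, and the control intervals did not overlap the tumor-bearing intervals. TS over CS gave a log2 ratio of -0.94 (-1.41 to -0.45) and TBM over CBM one of -0.91 (-1.24 to -0.59), so neither reached 2-fold, and it was 0.10 (-0.35–0.53) for CS over CBM. With coarser clusters (resolution 0.6) the spleen ratio was -0.34 and with at least 350 genes per barcode -0.42. Thinned shares were closer, at 3.14%, 2.55%, 4.61%, and 3.01%, and unthinned shares were 21.8%, 13%, 32.9%, and 12.6%. Erythroid-like barcodes had thinned shares of 0.641% in CBM, from 1 barcode, and 0% in the other libraries.

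By cluster, Il18 was at 19, 12.6, 24.4, and 12.3 CPM in the Hlf-led cluster of CBM, TBM, CS, and TS. The Dusp2-led cluster was at 17 CPM in TS, not below its 16.7 CPM in CS, and at 4.12 (1.51–8.97) in TBM from 6 UMIs. There TS over TBM gave a log2 ratio of 2.04 (0.86–3.53), whereas the class levels of TS and TBM were alike within their intervals. The Iglc1-led cluster was at 7.75 and 3.84 CPM in CBM and TBM, and at 7.11 (3.07–14) in CS and 2.9 (1.80–4.43) in TS. Inside single clusters the log2 ratio of TS over CS was -0.99 (-2.31–0.15) in the Hlf-led, -1.29 (-2.53–0.09) in the Iglc1-led, and 0.02 (-0.76–0.89) in the Dusp2-led cluster, and each interval included 0. For TBM over CBM it was -0.59 (-0.96 to -0.23) in the Hlf-led and -1.02 (-1.85 to -0.19) in the Iglc1-led cluster, and neither interval included 0. Without the Dusp2-led cluster the class gave -2.18 for TS over CS, between libraries of different make-up, with 80 Hlf-led and 30 Iglc1-led barcodes left in CS and 68 and 278 in TS.

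Il1r1, the signaling receptor of IL-1α and IL-1β, was highest in HSPC-like barcodes in every library, among named classes with at least 20 barcodes, where it was at 31 CPM in CBM and 54.1 in TBM, and 23.3 in CS and 38.1 in TS. In CS the unnamed cluster led by Trbc1 and Ly6d, at 23.1 CPM, was not separated from them. Megakaryocyte-like barcodes had 6.09 CPM in CBM and 18.8 in TBM, and 3.54 in CS and 12.4 in TS. Monocyte-like barcodes had 2.88, 10.4, 3.33, and 13.2 CPM, and Erythroid-like barcodes 2.97, 7.57, 1.42, and 3.56 CPM. In each of these 3 classes the tumor-bearing library was above the control library of its tissue.

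The log2 ratio in Megakaryocyte-like barcodes was 1.81 (1.05–2.63) for TS over CS and 1.62 (1.11–2.17) for TBM over CBM. In Monocyte-like barcodes it was 1.98 (0.86–3.25) and 1.85 (1.38–2.36), and in Erythroid-like barcodes 1.33 (0.96–1.72) and 1.35 (0.29–2.54). Granulocyte-monocyte progenitor-like barcodes could be compared in BM, where the ratio was 1.95 (0.67–3.60) from 92 UMIs in TBM and 5 in CBM. With barcodes of at least 350 genes the ratios in Monocyte-like barcodes were 0.25 in the spleen and 0.72 in BM, below 2-fold, and the BM ratio in Megakaryocyte-like barcodes was 0.96. At resolution 2.0 the BM ratio in Monocyte-like barcodes was 0.68, and at resolution 0.6 the spleen ratio in Erythroid-like barcodes was 0.95. The Erythroid-like class lay in different clusters by library, with 584 of 868 CS barcodes in a cluster led by Apoe (117 in TS) and 1063 and 898 of the 2954 TS barcodes in 2 clusters led by Trnp1. In the C1qtnf12-led cluster Il1r1 was at 2.07 CPM (1.33–3.08) in CS and 5.44 (4.63–6.37) in TS, and in the Apoe-led cluster at 0.96 (0.657–1.36) and 0.841 (0.102–3.04). HSPC-like barcodes had smaller ratios as a class, 0.71 (0.37–1.07) and 0.80 (0.63–0.98). In the Hlf-led cluster Il1r1 was at 32.3 CPM (28.7–36.2) in CBM and 70.6 (64.9–76.6) in TBM, and 27.3 (19.3–37.4) in CS and 38.4 (24.9–56.7) in TS. The Iglc1-led cluster had 28.9, 38.5, 14.2, and 28.9 CPM in CBM, TBM, CS, and TS. The Dusp2-led cluster had 31.6 CPM in TBM, 28.2 in CS, and 51.9 in TS.

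Free RNA of Il1r1 moved the same way. It was at 3.44 CPM in CBM and 14.9 in TBM, and 1.38 in CS and 4.71 in TS, with a log2 ratio of 1.77 (0.43–3.28) for TS over CS and 2.11 (1.01–3.41) for TBM over CBM. Outside HSPC-like barcodes, no BM level of the Erythroid-like, Megakaryocyte-like, Monocyte-like, or Granulocyte-monocyte progenitor-like classes exceeded the free RNA interval of its library (1.48–6.77 CPM in CBM and 10.8–19.9 in TBM). In the spleen the Erythroid-like levels did not exceed it either, and HSPC-like levels did in all 4 libraries. With 10% of each barcode's UMIs taken as free RNA and subtracted, the Il1r1 ratios of Erythroid-like, Megakaryocyte-like, Monocyte-like, and Granulocyte-monocyte progenitor-like barcodes stayed between 1.21 and 1.99.

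**Figure D3:**
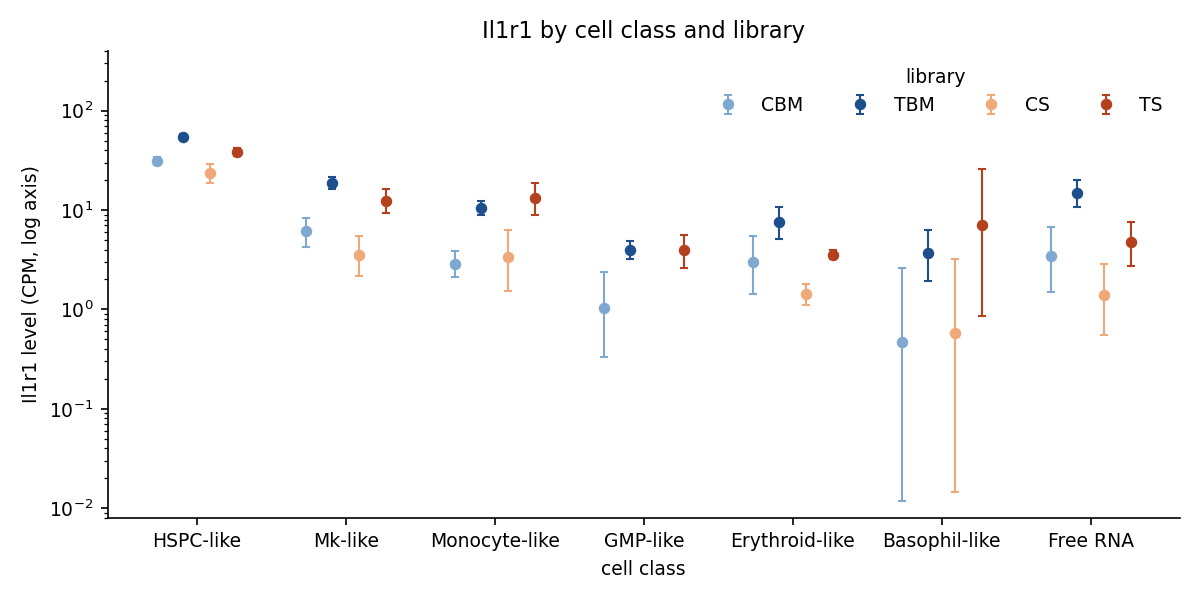
Level of Il1r1 (CPM, log axis) in 6 cell classes and in free RNA, by library, with exact Poisson 95% intervals. HSPC-like barcodes were highest, and TBM and TS lay above CBM and CS in the Megakaryocyte-like, Monocyte-like, and Erythroid-like classes and in free RNA.

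Within the Monocyte-like class the Il1r1 signal came from the cluster led by F13a1, at 4.78 CPM in CBM and 17.8 in TBM, and 3.49 in CS and 13.7 in TS. The cluster led by Lyz2, with 378 of the 721 Monocyte-like barcodes of CBM, had 2 UMIs in CBM. The cluster led by Chil3 held 219 barcodes of TBM and 3 of the other libraries, and was at 1.55 CPM (0.741–2.84). Both larger Megakaryocyte-like clusters, each led by Pf4, showed the order of the class. Basophil-like barcodes had 1 to 13 Il1r1 UMIs per library and Conventional dendritic cell-like barcodes of CS had 0 from 317 barcodes, where 3 UMIs would have been 0.36 CPM.

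Il1r2, the decoy receptor, had 382 UMIs in TBM, against 15 in CBM, 44 in CS, and 93 in TS. Neutrophil-like barcodes of TBM were at 192 CPM (159–229), with an Il1r2 UMI in 78.2% of 55 barcodes before thinning and 38.9% after. Monocyte-like barcodes had 0.184 CPM in CBM and 8.9 in TBM, a log2 ratio of 5.60 (4.02–7.89) from 134 against 3 UMIs. Of those 134 UMIs, 125 came from the Chil3-led cluster, at 19.3 CPM (16.1–23), and the F13a1-led cluster had 0.319 CPM in CBM and 0.613 in TBM. Granulocyte-monocyte progenitor-like barcodes had 75 UMIs in TBM and 0 in CBM. With CBM set at a floor of 3 counts this is a point value of 2.39 on the log2 scale and not a lower bound. The interval was 2.54–4.05 CPM in TBM and reached up to 0.757 CPM in CBM. Free RNA of Il1r2 was at 0.43 CPM in CBM and 6.28 in TBM, so the BM background differed in the same direction. HSPC-like barcodes had 0.699, 1.18, 1.73, and 2.04 CPM in CBM, TBM, CS, and TS, and no 2 of them differed beyond counting error in the comparisons made. The lowest and the highest, CBM (0.319–1.33) and TS (1.33–2.99), were not compared with each other.

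Il1rap, the shared accessory chain, was at 25.3 CPM or less in every named class with at least 20 barcodes other than the Basophil-like, and at 75.4 CPM in an unnamed cluster of TBM led by Tsix and Mpo. HSPC-like barcodes had 9.31, 9.84, 8.35, and 9.11 CPM in CBM, TBM, CS, and TS, with log2 ratios of 0.13 (-0.47–0.77) for TS over CS and 0.08 (-0.27–0.43) for TBM over CBM. Free RNA was at 8.6, 8.92, 3.95, and 6.93 CPM, close to the HSPC-like level in BM. The part of free RNA in that level was not tested.

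Basophil-like barcodes stood apart for Il1rap, at 90.2 CPM in CBM and 29.6 in TBM, and 90.8 in CS and 46 in TS. Both control libraries were above both tumor-bearing libraries, with the TS interval (24.5–78.7) just reaching those of CS (77.2–106) and CBM (77.9–104). TBM over CBM gave a log2 ratio of -1.61 (-1.96 to -1.26) and TS over CS one of -0.98 (-1.92 to -0.16), and it was 0.01 (-0.30–0.32) between the control tissues.

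Different clusters held the Basophil-like class in control and tumor-bearing libraries, which stands beside each Basophil-like value here. A cluster led by the chemokine gene Ccl3 held 397 of the 457 Basophil-like barcodes of CBM and 282 of the 298 of CS, but 14 of the 452 of TBM and 4 of the 61 of TS. A cluster led by Prss34, a basophil protease gene, held 268 in TBM, 46 in CBM, 22 in TS, and 3 in CS. The larger of 2 clusters led by Ccl6 held 160 in TBM and 35 in TS, with 1 each in CBM and CS. The 5 basophil markers, all detected in each library, summed to 12753 CPM in CBM and 27952 in TBM, and 3390 in CS and 28978 in TS. Of the 11 mast cell markers, 6 to 8 were detected, at 3941, 4176, 2919, and 5572 CPM. The median depth of the class was 4120, 6668, 4947, and 3354 UMIs per barcode. In the Prss34-led cluster, which had 20 or more barcodes in CBM, TBM, and TS, Il1rap was at 41.3 CPM (22.6–69.2), 29.3 (23.1–36.7), and 29.4 (9.55–68.6), and its log2 ratio of TBM over CBM was -0.49. The part of marker levels and depth in the ratios was not tested.

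Il1rl1, the IL-33 receptor chain, was higher in the Basophil-like barcodes of both tumor-bearing libraries. Its level was 146 CPM (130.2–163) in CBM and 326 (308–345) in TBM, and 202 (181–224) in CS and 435 (362–519.5) in TS. Both tumor-bearing libraries were above both control libraries with no overlap of intervals. The log2 ratio was 1.11 (0.80–1.41) for TS over CS and 1.16 (0.98–1.34) for TBM over CBM. The share of Basophil-like barcodes with an Il1rl1 UMI was 26%, 53.4%, 30.5%, and 52.5% in CBM, TBM, CS, and TS after thinning, and 39.4%, 83.4%, 57.7%, and 75.4% before. Monocyte-like barcodes, which served as background for this gene, had thinned shares of 0% to 1.19% and a median depth of 23237 to 34758 UMIs.

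By cluster, Il1rl1 was highest in the larger Ccl6-led cluster, at 662 CPM in TBM and 826 in TS. The Ccl3-led cluster of the control libraries had 165 CPM in CBM and 227 in CS. In the Prss34-led cluster it was 106 CPM in CBM, 252 in TBM, and 199.9 in TS, so the BM difference was also present inside 1 cluster. Without the Ccl6-led cluster the log2 ratio of TS over CS was 0.07 and that of TBM over CBM 0.76. The spleen difference rested on the 35 barcodes of TS in that cluster.

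Other classes also carried Il1rl1. The Mast-like barcodes were at 253 CPM (189–332) in CBM and 315 (266–369.5) in CS, from 20 and 44 barcodes. Eosinophil-like barcodes had 68.3, 112, 61.9, and 103 CPM in CBM, TBM, CS, and TS. Erythroid-like barcodes had 43, 38.6, 32.8, and 23.1 CPM, all above free RNA at 8.6, 11.6, 15.8, and 16.9 CPM, and held 54.5% of the Il1rl1 UMIs of CS and 82.2% of those of TS. The erythroid clusters led by Trnp1 held 1063 and 898 barcodes of TS at 21.2 and 23 CPM. TS was also lower inside the C1qtnf12-led cluster, at 24.6 CPM (22.8–26.4) against 30.6 (27.5–34) in CS. In the Apoe-led cluster the level was 33.9 CPM (32–36) in CS and 30.3 (23.7–38.1) in TS. In the Erythroid-like cluster led by Hba-a1, the alpha globin gene, the level was 37, 42.7, 43.3, and 43.8 CPM in the 4 libraries, with all intervals overlapping.

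In HSPC-like barcodes Il1rl1 was at 1.47 CPM in CBM and 5.57 in TBM, and 1.15 in CS and 6.52 in TS. The tumor-bearing libraries were above the control libraries, with a log2 ratio of 2.50 (1.09–4.41) for TS over CS, from 83 against 4 UMIs, and of 1.92 (1.19–2.71) for TBM over CBM. All 4 levels were below free RNA. At resolution 0.6 the spleen ratio was 0.81. The Hlf-led cluster had 1.33, 1.95, 0, and 3.07 CPM, and most of the signal lay in the Iglc1-led cluster, at 6.9 CPM in TBM and 9.39 in TS, and in the Dusp2-led cluster of TBM at 19.9 CPM. Basophil markers in HSPC-like barcodes summed to 14.7, 96.1, 13.8, and 35.6 CPM and mast cell markers to 64.2, 169, 169.5, and 264 CPM, and their part in the Il1rl1 level was not tested.

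Il18r1, the ligand-binding chain of the IL-18 receptor, went the other way in Basophil-like barcodes. It was at 484 CPM (455–515) in CBM and 153 (141–167) in TBM, and 460.5 (429–494) in CS and 184 (137–241) in TS. Both tumor-bearing libraries were below both control libraries, and the intervals did not overlap. It had a log2 ratio of -1.32 (-1.76 to -0.92) for TS over CS, -1.66 (-1.81 to -1.51) for TBM over CBM, and -0.07 (-0.21–0.06) for CS over CBM. Thinned shares were 61.5%, 27.7%, 60.4%, and 37.3% (unthinned 82.3%, 58.8%, 87.6%, and 50.8%), against 0% to 0.0679% of Erythroid-like barcodes. In the Prss34-led cluster Il18r1 was at 245 CPM in CBM and 126 in TBM, a log2 ratio of -0.96, which is below 2-fold. The Ccl3-led cluster had 574 CPM in CBM and 531 in CS, and the Ccl6-led cluster 258 CPM in TBM and 311 in TS.

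Il18rap, the accessory chain of the IL-18 receptor, did not follow Il18r1. Its Basophil-like level was 524 CPM (494–556) in CBM and 359 (339–379) in TBM, and 465 (433–498) in CS and 524 (443–615) in TS. The log2 ratio was 0.17 (-0.09–0.43) for TS over CS and -0.55 (-0.66 to -0.43) for TBM over CBM, so neither reached 2-fold and the spleen interval included 0. Thinned shares were 64.8%, 53.9%, 56.7%, and 74.6%, and unthinned shares were 86.6% to 88.5% in all 4 libraries.

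**Figure D4:**
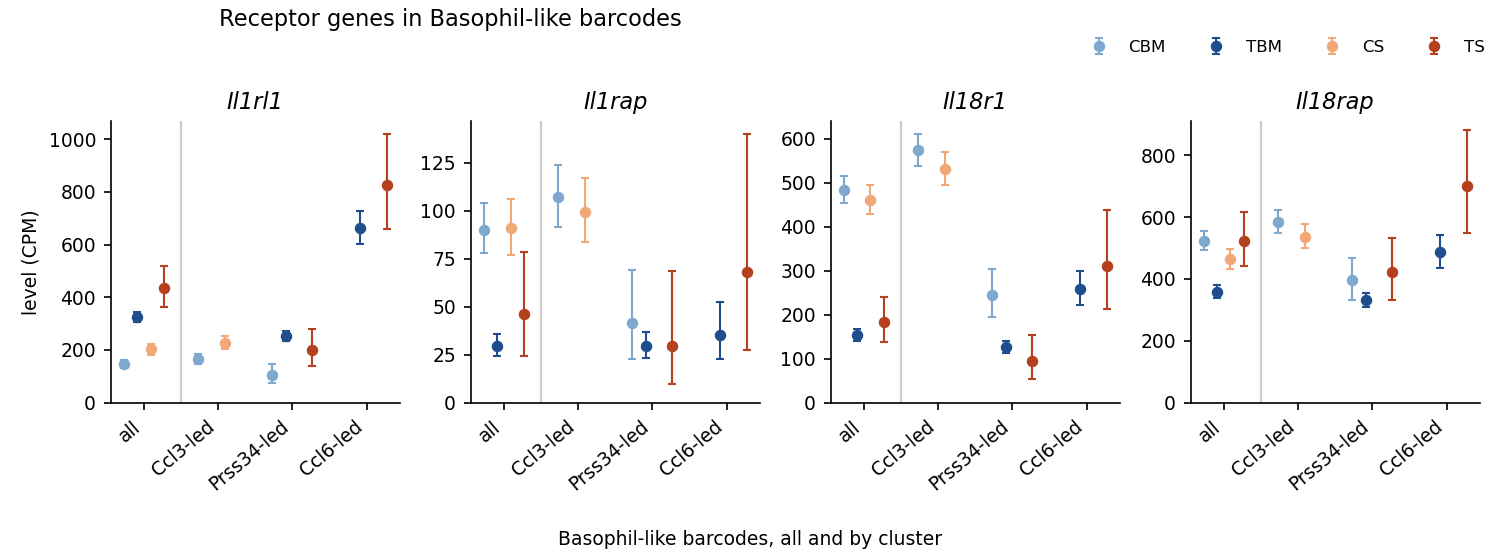
Levels (CPM) of Il1rl1, Il1rap, Il18r1, and Il18rap in all Basophil-like barcodes and in their 3 larger clusters, by library, with exact Poisson 95% intervals and only where a library had at least 20 barcodes of the cluster. Il1rl1 was higher and Il18r1 lower in TBM and TS than in CBM and CS, the Ccl3-led cluster has points for the control libraries alone, and the Ccl6-led cluster for the tumor-bearing libraries alone.

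Outside Basophil-like barcodes, Il18r1 was also found in an unnamed cluster led by the T cell receptor gene Trbc1 and by Ly6d, where CS had 149 CPM (129–170.3) and TS 23.3 CPM (17.6–30.4). T cell-like barcodes had 62.5 CPM in CS from 17 UMIs and 50.5 CPM (18.5–109.8) in TS from 6 UMIs. The cluster led by Trbc1 and Ly6d had a log2 ratio of TS over CS of -2.67 (-3.13 to -2.24) for Il18r1 and of -1.31 (-1.94 to -0.70) for Il18rap, which was at 41.1 CPM in CS and 16.5 in TS. In that cluster 8.45% of 9511 genes were past 2-fold lower for TS over CS, and the dissociation and immediate-early list had a median log2 ratio of -0.93, with 8 of 18 genes past 2-fold lower. Free RNA of Il18r1 was at 15.5, 7.93, 9.08, and 1.11 CPM in CBM, TBM, CS, and TS, lower in both tumor-bearing libraries as well, and the part of either in these ratios was not tested. Il18rap was also at 91.3 CPM in the Neutrophil-like barcodes of TBM and at 27.4, 41.7, 16.7, and 25.3 CPM in HSPC-like barcodes of CBM, TBM, CS, and TS. The HSPC-like ratio was 0.60 (0.19–1.03) for TS over CS and 0.61 (0.42–0.80) for TBM over CBM. Monocyte-like barcodes had 4.05 CPM in CBM and 14.4 in TBM, a log2 ratio of 1.83 (1.43–2.25), which was 0.99 at resolution 0.6, below 2-fold. Free RNA of Il18rap was at 14.6 CPM in CBM and 26.8 in TBM, above both Monocyte-like levels.

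The 2 chains of a receptor were found in the same barcodes about as often as their separate shares would give. In Basophil-like barcodes Il18r1 and Il18rap were both detected in 71.6%, 53.1%, 75.5%, and 45.9% of barcodes in CBM, TBM, CS, and TS, beside 71.8%, 51.7%, 75.8%, and 45% from the product of the shares. Il1rl1 and Il1rap were both detected in 15.1%, 14.6%, 25.5%, and 14.8%, beside 12.9%, 14.8%, 22.7%, and 12.4%. In HSPC-like barcodes Il1r1 and Il1rap were both detected in 4.64%, 7.21%, 5.92%, and 7.38%, beside 4.01%, 7.25%, 5.84%, and 6.37%. These shares were unthinned. At 2000 UMIs a barcode, 1, 1, 0, and 2 HSPC-like barcodes held both Il1r1 and Il1rap, so joint detection could not be read at that depth.

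Counts over the whole set were read beside those of all genes. The members were chosen with earlier results of these data known, and pairs of the same gene in several classes are not independent. The counts are therefore a description and not a test of the set. A pair of a gene and a class was called past 2-fold when the log2 ratio was at or past 1 in either direction, its exact conditional 95% interval excluded 0, and the 2 libraries together held at least 20 UMIs, in classes with at least 50 barcodes in both. For TS over CS, 7 of 35 member pairs were past 2-fold higher, where 2.03% of 73421 pairs of all genes were, and 3 were past it lower, where 4.19% were. For TBM over CBM, 11 of 45 were higher and 3 lower, beside 2.69% higher and 2.69% lower of 96384. Past 2-fold in both of these comparisons were 5 of 30 member pairs higher, beside 0.629% of all pairs, and 1 lower, beside 0.664%. The 5 were Il1r1 in Erythroid-like, Megakaryocyte-like, and Monocyte-like barcodes and Il1rl1 in Basophil-like and HSPC-like barcodes, and the 1 was Il18r1 in Basophil-like barcodes. Pairs called in 1 of them and not yet described were Il1rl1 in Megakaryocyte-like barcodes at 1.76 (0.77–2.86) for TS over CS, at levels below free RNA, and Il18rap there, at 4.51 CPM in TS and 1.6 in CS from 20 and 9 UMIs. For TBM over CBM they were Il18rap in Granulocyte-monocyte progenitor-like barcodes at 1.02 (0.46–1.62), Il1b in an unnamed cluster led by Scin and St8sia6 at 2.57 (1.36–3.94), and Il1rap in B-lineage-like barcodes at -1.85 (-4.24 to -0.12), the last from 3 UMIs in TBM. The median log2 ratio of the member pairs was 0.17 for TS over CS and 0.39 for TBM over CBM, against -0.05 and 0.01 over all genes.

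For CS over CBM, 2 of 34 were higher and 2 lower, beside 3.01% and 2.88% of all pairs, with a median of -0.17. For TS over TBM, 5 of 44 were higher and 5 lower, beside 2.67% and 3.88%, with a median of -0.05. Il1b made up 4 of the 5 higher pairs of TS over TBM, in HSPC-like, Monocyte-like, and Granulocyte-monocyte progenitor-like barcodes and in an unnamed cluster led by F13a1 and Gria3. It also made up both higher pairs of CS over CBM, in HSPC-like barcodes and in the cluster led by Scin and St8sia6. At resolution 2.0 the latter split, with 267 of its 285 CBM barcodes in one cluster and 332 of its 356 CS barcodes in another, so the barcodes of these libraries lay mostly apart at that resolution. The dissociation and immediate-early list had a median log2 ratio of 1.06 for CS over CBM in the Scin-led cluster. There 10 of 19 genes were past 2-fold higher, beside 2.4% of all genes. The median was 0.72 for TBM over CBM, with 4 of 17 past it, beside 2.51%. For TS over TBM it was 0.89 in the cluster led by F13a1 and Gria3, with 7 of 18 past it, beside 1.01%. In Granulocyte-monocyte progenitor-like barcodes 4 of 20 were past it, beside 0.973%. The part of this list in these Il1b ratios was not tested. The other higher pair of TS over TBM was Il1rl1 in Megakaryocyte-like barcodes at 1.59 (0.79–2.41), and the lower pairs of CS over CBM were Il18r1 in that class at -1.48 (-2.84 to -0.27) and Il18rap in Erythroid-like barcodes. The lower pairs of TS over TBM were Il1b in Basophil-like barcodes at -1.69 (-3.58 to -0.31), Il1r2 in Monocyte-like barcodes at -1.71 (-3.18 to -0.55), and 3 in Erythroid-like barcodes, namely Il1b at -1.18 (-2.07 to -0.14), Il1r1 at -1.09 (-1.62 to -0.51), and Il18rap. In Erythroid-like barcodes 9.78% of 12776 genes were past 2-fold lower for TS over TBM, and 7.68% of 12086 for CS over CBM. The Hba-a1-led cluster held 126 of the 203 Erythroid-like barcodes of TBM and 58 of the 2954 of TS. Free RNA of Il1r1 had a log2 ratio of -1.66 (-2.56 to -0.82) for TS over TBM, and Erythroid-like Il1b was below free RNA in both libraries. Il18rap was lower in the Erythroid-like barcodes of the spleen, at -3.41 (-4.63 to -2.14) for CS over CBM, against -3.49 (-4.41 to -2.50) for TS over TBM, where the median of all genes in that class was 0.24 and 0.23. Its free RNA was at 14.6 and 26.8 CPM in CBM and TBM and at 7.7 and 3.05 CPM in CS and TS. These comparisons share their libraries with TS over CS and TBM over CBM.

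**Figure D5:**
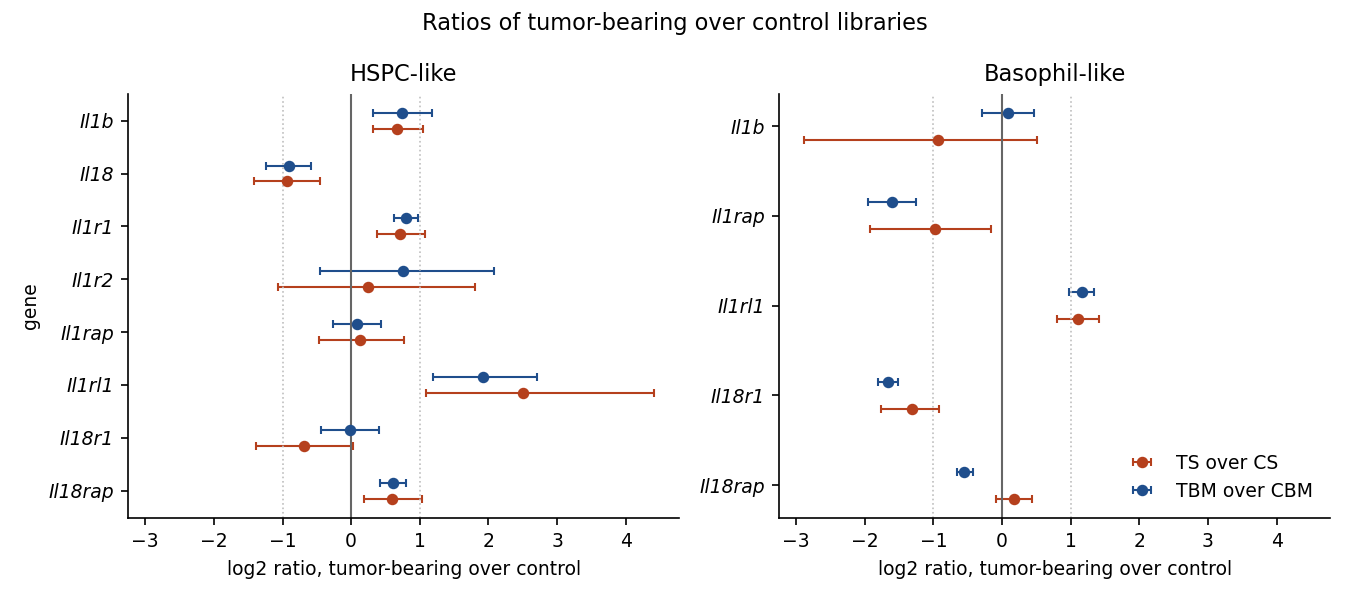
Log2 ratio of tumor-bearing over control libraries for the member genes with at least 20 UMIs in HSPC-like and Basophil-like barcodes, with exact conditional 95% intervals, and dotted lines at 2-fold. Il1rl1 lay above 1 in both classes and both tissues, and Il18r1 lay below -1 in Basophil-like barcodes at -1.32 in the spleen and -1.66 in BM.

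Of 11 other genes of the family, 10 were found in the matrices. Il33, the ligand of ST2, had 1 UMI in CBM and 6 in TBM, and 0 in CS and 9 in TS. Il1rl2, the IL-36 receptor chain, was at 2.25, 2.97, 2.01, and 3.77 CPM in HSPC-like barcodes. Il1f9, which encodes IL-36γ, had 9, 142, 2, and 20 UMIs in CBM, TBM, CS, and TS. Over all classes, 1 of 12 pairs of these genes was higher and 2 lower for TS over CS, where 2.03% and 4.19% of all pairs were. For TBM over CBM 2 of 21 were higher and 1 lower, where 2.69% and 2.69% were.

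Of the pairs of the 16 signal transduction genes below the receptors, 0 of 108 were past 2-fold higher and 4 lower for TS over CS (2.03% and 4.19% of all genes), and 1 of 141 higher and 3 lower for TBM over CBM (2.69% and 2.69%). In HSPC-like barcodes 0 of 16 were past it in any comparison, where between 1.18% and 3.69% of all genes in that class were past it in a given direction. In Basophil-like barcodes Peli1, a ubiquitin ligase acting on IRAK kinases, was at 147 CPM in CS and 42.5 in TS and at 113 in CBM and 41.8 in TBM, with log2 ratios of -1.79 (-2.76 to -0.96) and -1.44 (-1.74 to -1.13). Its relative Peli2 had a log2 ratio of -1.93 (-2.99 to -0.94) for TBM over CBM, from 13 against 30 UMIs.

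The 13 genes of the inflammasome and of proteases that cleave IL-1 family cytokines had 10 of 82 pairs higher and 3 lower for TS over CS, beside 2.03% and 4.19% of all genes, and 7 of 111 higher and 1 lower for TBM over CBM, beside 2.69% and 2.69%. For CS over CBM 1 of 72 was higher and 12 lower, beside 3.01% and 2.88%. For TS over TBM 2 of 100 were higher and 13 lower, beside 2.67% and 3.88%. The list includes Ctsg, Elane, and Prtn3, each with more UMIs in every library than any other gene of the list. Their part in these counts was not tested. In Basophil-like barcodes Pycard, the inflammasome adaptor ASC, was at 55.5 CPM in CS and 169.9 in TS and at 73 in CBM and 169 in TBM. Ctsg, the neutrophil protease cathepsin G, had log2 ratios of 4.19 (3.94–4.45) and 1.16 (1.06–1.26) there. In HSPC-like barcodes Ctsg, Elane, and Prtn3, all proteases of neutrophil granules, had log2 ratios of 1.65, 1.05, and 1.00 for TBM over CBM, and 0.62, 0.08, and 0.65 for TS over CS. Markers of granulocyte-monocyte progenitors in HSPC-like barcodes summed to 1948 CPM in CBM and 4104 in TBM, and 2787 in CS and 3925 in TS, and all 3 proteases are among those markers.

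The genes whose levels most resembled each member were sought over 40 profiles of a class in a library, among 11680 genes with at least 500 UMIs, by Pearson's r of log2(CPM + 1). Il1rl1 was most like Aqp9 (r = 0.896), Reps2 (0.887), and Acss2 (0.879), and Il18rap was most like Cxcr2 (0.897), Ptgir (0.893), and Hcst (0.88). Il1r1 was most like Il17re (0.796), Ociad2 (0.784), and Sema3d (0.753), and Il18 like 5730409E04Rik (0.786), Procr (0.772), and Myof (0.762). Il1rap was most like Dmxl2 (0.868), Atp11b (0.867), and Tgoln1 (0.842), Il1r2 like Pilra (0.814), Fgr (0.793), and Cstdc5 (0.793), and Il1b like I830077J02Rik (0.802), Cpeb2 (0.726), and Itpripl2 (0.7). Profiles of 1 library share its depth and free RNA, and clusters were themselves built on these libraries, so r is a description. Il1a and Il1rn had too few UMIs for this.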

How the data were processed

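The 10 genes, the gene lists and the markers were chosen with earlier results of these data known. The authors deposited unfiltered UMI counts per gene and barcode from 10x 3' v3.1 libraries, one matrix per group, made per the submitters' processing notes with Cell Ranger 4.0 on mm10. Its settings were the defaults, per the study's methods, under which reads antisense to a gene are not counted for it. The matrices held 101811035 to 176094297 UMIs, of which 58.1% to 79.4% lay in barcodes with at least 1000 genes and at most 10% mitochondrial UMIs.

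Counts were log-normalized and clustered with scanpy 1.11.5 (3000 variable genes, 50 principal components, 20 neighbors, Leiden resolution 1.2, seed 1). The 10 genes, mitochondrial and ribosomal protein genes and Xist were left out of the clustering, as were the pathway lists except Ctsg, Elane and Prtn3. A cluster took the name of the marker list with the most members among its 50 leading genes by fold, and stayed unnamed with fewer than 3 of them there or fewer than 3 detected, where another class had more markers among its 10 leading genes, or where it was shallow with no marker of its own there. Classes may therefore differ from the study's own annotation. No doublet caller was run, and an alternative left out the 5% of barcodes with the most UMIs.

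UMIs were summed by class and library, with exact Poisson, binomial and conditional 95% intervals (scipy 1.17.1, Python 3.11.15). Each group was 1 library, so no test was made, and a UMI count of 0 was read against a floor of 3 counts. Shares were also computed after thinning each barcode to 2000 UMIs. The ratio script was tested on simulated data. All 10 genes are named, with up to 3 members of each pathway list with the largest ratio past 2-fold in the class described, and the 3 genes most like each member, which are not reported here for Il18r1. Genes named beyond that rule, among them Il33, Il1f9, Il1rl2, Elane and Prtn3 in the spleen, the ratios inside single HSPC-like clusters, and the sequence words were chosen after their values were seen. Alternatives varied the barcode filters, the cluster resolution, free RNA, library size, weighting, thinning and the UMI minimum.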

Additional observations from a re-analysis of the deposited data

How the results depend on the processing

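No paired analysis was possible because each group was 1 library and no test was made. Under the alternatives planned for the filters, clusters and scaling no ratio past 2-fold changed sign, and 194 of 222 main and 766 of 806 other ratios stayed within their counting interval. Under those added by cluster, 14 of 28 and 44 of 62 did, and 2 changed sign. The causes of the changes below were not tested, beyond what each setting itself leaves out. The ratios that follow are log2, with TS over CS named as spleen and TBM over CBM as BM.

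With at least 350 genes per barcode, in HSPC-like barcodes Il1b was 0.16 (spleen) and 0.11 (BM), Il18 -0.42 (spleen), Il18rap 1.09 and 0.90, and Il1rl1 0.74 (spleen). Il1r1 was 0.25 (spleen) and 0.72 (BM) in Monocyte-like and 0.96 (BM) in Megakaryocyte-like barcodes, and Il18rap was 1.38 (BM) in Monocyte-like barcodes. At resolution 0.6, HSPC-like values were -0.34 for Il18 and 0.81 for Il1rl1 (spleen), 1.11 and 0.91 for Il18rap, and 0.22 for Il1b and 1.04 for Il1r1 (BM). Erythroid-like Il1r1 was 0.95 (spleen), and Monocyte-like Il1r1 and Il18rap were 1.14 and 0.99 (BM). At resolution 2.0, Il1b in HSPC-like barcodes was -0.05 and Il1r1 in Monocyte-like barcodes 0.68 (BM). The mean of per-barcode CPM gave 1.46 and 1.41 for Il1rl1 and -1.48 (BM) for Il18r1 in Basophil-like barcodes, and 1.00 (BM) for Il1r1 in HSPC-like barcodes. Subtracting 10% free RNA gave Il1rl1 2.84 in HSPC-like (BM) and 3.34 in Megakaryocyte-like barcodes (spleen). Without the 5% deepest barcodes, Erythroid-like Il1r1 was 1.78 (spleen).

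Alternatives by cluster were added after seeing the data. In the Hlf-led cluster alone Il1b was -0.39 for CS over CBM, against -1.43 for TS over TBM, and -0.90 (spleen) and 0.14 (BM). With 4 UMIs in CS and 1 in TS, whose intervals contain the BM levels, no reversal can be read from this. There Il18rap was 1.17 and 1.02, Il1r1 1.13 (BM) and Il1rl1 0.55 (BM). Without the Dusp2-led cluster Il18 was -2.18 and Il1rl1 4.48 (spleen), but CS then held mostly Hlf-led and TS mostly Iglc1-led barcodes, so these ratios compare different cells. Without the larger Ccl6-led cluster, Basophil-like Il1rl1 was 0.07 and 0.76, and Il18r1 -2.05 and -1.92, in spleen and BM. In the Prss34-led cluster alone Il18r1 was -0.96 and Il1rap -0.49 (BM).

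The count of member pairs lower for CS over CBM went from 2 to 4 without the deepest barcodes, 1 at resolution 2.0, 0 after subtracting free RNA or with a minimum of 50 UMIs, and 5 with 350 genes. With free RNA subtracted, TS over TBM had 8 higher and 2 lower pairs. With 50 UMIs, TS over CS had 4 higher pairs. With 350 genes, TS over CS had 6 lower pairs and CS over CBM 7 higher. Of the shares of barcodes with a UMI, 68 of 160 moved with the thinning depth, which sets them. Il1a and Il1rn had at most 10 UMIs in any class and library, which limits what their levels can show.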
